A study of Bos taurus with 30 samples.

Results

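The genes LGALS1 and DAB2 were followed across 6 groups of biopsies of cattle skin infested with ticks. LGALS1 and DAB2 are 2 of 9155 gene symbols on a bovine expression array (Affymetrix), and all probe sets carrying either symbol were taken, which gave 1 probe set for LGALS1 (Entrez gene 326598) and 2 for DAB2 (Entrez gene 509221) among 24016. The animals were F2 cattle of a cross between Gyr (Bos indicus) and Holstein (Bos taurus), 6 called tick resistant and 7 called tick susceptible. The 30 arrays were of resistant skin at 0 h (5 arrays, before infestation), 24 h (6) and 48 h (5) after ticks were put on, and of susceptible skin at 0 h (3), 24 h (6) and 48 h (5). Most animals were sampled at more than 1 time, at skin sites used for tick feeding, so the groups of a phenotype share animals; the age of the animals, the tick species and the way resistance was scored are not given in the sources used here. Values are log2 MAS5 signals, in which a step of 1 is a doubling.

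Both genes were chosen by their signal in resistant skin at 48 h against resistant skin at 0 h. In fits that took the animal into account, each was among 45 of 13809 probe sets that passed in that comparison with the animal numbers as labelled and also with 3 uncertain numbers moved. For LGALS1 and DAB2, comparisons that use resistant arrays of 0 h or 48 h are therefore given as descriptions, each difference with its standard error (SE) and no p. Their tests are given for 4 comparisons whose groups hold no such array. These are resistant against susceptible skin at 24 h and the 3 pairs of times in susceptible skin. The limma tests take the spread from all groups together, so their SE and p still rest in part on those resistant arrays. The fits that chose the genes also held the resistant arrays of 24 h. Genes of the lists described further on were tested in all 9.

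LGALS1 encodes galectin-1, a small lectin secreted without a signal peptide that binds galactose-ended glycans on cell surface and matrix glycoproteins. Fibroblasts, vessel walls, macrophages and activated lymphocytes make it, and it is known for damping T cell responses. DAB2 encodes disabled-2, an endocytic adaptor that links receptors of the LDL receptor family and integrins to clathrin and the AP2 complex, with further roles in TGF-beta and Wnt signalling. Tissue macrophages are among the cells known to hold it. In a biopsy, fewer cells of a type and less RNA per cell cannot be told apart.

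The arrays carried the defining genes of skin. Of 11 basal keratinocyte markers 7 were on the array, and all 7 were kept after the filter on low signals. Among them were KRT5 at a mean of 14.39 and KRT14 at 14.02 in resistant skin at 0 h. In the lists below, genes that were not kept include those without a probe set of that symbol. One library, resistant animal 01 at 48 h, lay far out on the first principal component, at 65.6 where the next array was at 38.3, and the LGALS1 and DAB2 differences at 48 h are also given without it. The animal numbers of 3 resistant arrays at 0 h are uncertain. In a set of 100 probe sets with strong animal differences, the profiles labelled 03, 04 and 05 resembled most the later profiles of 04, 05 and 06.

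LGALS1 was highest in resistant skin at 48 h. Its signal there was 13.31 in animal 01, 13.89 in 02, 14.09 in 03, 13.74 in 05 and 13.28 in 06, a mean of 13.66 ± 0.36 (SD, n = 5). Before infestation resistant skin read 13.01, 12.73, 12.95, 12.55 and 12.73 in animals 01 to 05, a mean of 12.79 ± 0.19 (SD, n = 5). All 5 arrays of 48 h lay above all 5 of 0 h, so these groups did not overlap. At 24 h the 6 resistant arrays ran from 12.49 (animal 06) through a median of 13.01 to 13.70 (animal 04), with a mean of 13.01 ± 0.41 (SD, n = 6). They overlapped both other times.

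In susceptible skin the LGALS1 means of the 3 times lay close together. The signal was 12.74, 12.59 and 12.90 in animals 09, 10 and 11 at 0 h, a mean of 12.75 ± 0.15 (SD, n = 3). At 24 h it ran from 12.29 (animal 13) through a median of 12.59 to 13.12 (animal 11), with a mean of 12.64 ± 0.33 (SD, n = 6). At 48 h it read 12.76, 12.93, 11.91, 12.98 and 12.61 in animals 07, 09, 10, 11 and 13, a mean of 12.64 ± 0.43 (SD, n = 5). The lowest LGALS1 signal of the 30 arrays was that of animal 10 at 48 h, and all 5 susceptible arrays of 48 h lay below all 5 resistant ones.

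In order of mean level, LGALS1 ran from resistant 48 h through resistant 24 h, resistant 0 h, susceptible 0 h and susceptible 24 h to susceptible 48 h. The gap between the first and the second group was 0.65, larger than the larger of their SDs (0.41), although the arrays overlapped. The other 4 gaps, of 0.22, 0.05, 0.10 and 0.01, were each smaller than the larger SD of the pair.

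**Figure D1:**
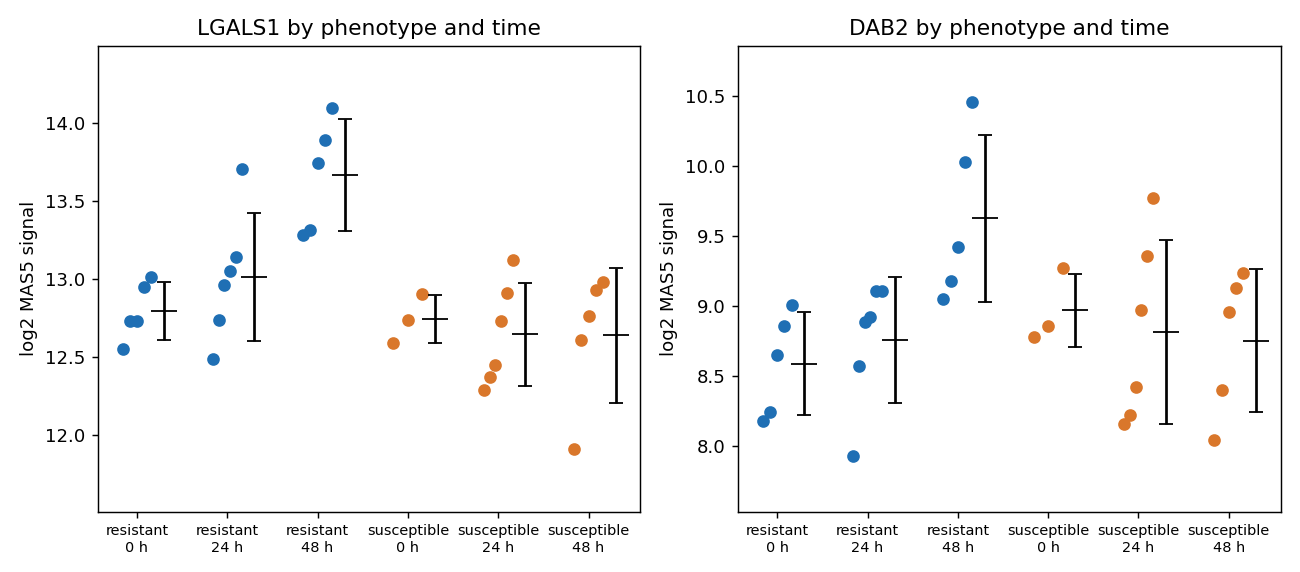
Log2 MAS5 signal of LGALS1 (left) and of the kept DAB2 probe set (right) in each array, by phenotype and time; points are arrays, and the black bar beside them is the mean with 1 SD. For both genes resistant skin at 48 h has the highest mean (13.66 and 9.63), and its 5 arrays lie above those of resistant skin at 0 h. The vertical axes do not start at 0.

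DAB2, read by the brighter of its probe sets, was also highest in resistant skin at 48 h. Its signal was 10.46 in animal 01, 10.03 in 02, 9.42 in 03, 9.18 in 05 and 9.05 in 06, a mean of 9.63 ± 0.60 (SD, n = 5). At 0 h the resistant animals 01 to 05 read 8.86, 8.65, 9.01, 8.24 and 8.18, a mean of 8.59 ± 0.37 (SD, n = 5), the lowest of the 6 group means. The groups did not overlap, though the lowest array at 48 h (9.05) was close to the highest at 0 h (9.01). At 24 h resistant skin ran from 7.93 (animal 06) through a median of 8.91 to 9.11, with a mean of 8.76 ± 0.45 (SD, n = 6).

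In susceptible skin DAB2 was 9.27, 8.86 and 8.78 in animals 09, 10 and 11 at 0 h, a mean of 8.97 ± 0.27 (SD, n = 3). At 24 h it ran from 8.16 (animal 13) through a median of 8.69 to 9.77 (animal 09), with a mean of 8.82 ± 0.66 (SD, n = 6). At 48 h it read 9.13, 8.40, 8.04, 9.24 and 8.96 in animals 07, 09, 10, 11 and 13, a mean of 8.75 ± 0.51 (SD, n = 5). Unlike LGALS1, DAB2 overlapped between the phenotypes at 48 h, with 3 of 5 resistant arrays above every susceptible one.

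The order of DAB2 means was resistant 48 h, susceptible 0 h, susceptible 24 h, resistant 24 h, susceptible 48 h and resistant 0 h. The first gap, 0.66, was larger than the larger SD of that pair (0.60), and the other 4, between 0.00194 and 0.16, were smaller than theirs.

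The dimmer DAB2 probe set lay below the array median on all 30 arrays, between -0.87 and 4.66 where array medians were 7.17 to 7.40. It did not pass the filter and was not tested. Its mean was 3.05 ± 1.44 (SD, n = 5) in resistant skin at 48 h and 2.06 ± 1.79 (SD, n = 5) at 0 h, and all neighbouring groups overlapped. The DAB2 results below rest on the other probe set alone.

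Resistant skin at 48 h minus 0 h was 0.87 ± 0.21 (SE) for LGALS1, a 1.83-fold difference, and 1.04 ± 0.31 (SE) for DAB2, 2.05-fold. This is the comparison by which the genes were chosen, so neither these values nor those with an animal term below are a separate check. The median over all 13809 probe sets was -0.02, and 183 probe sets had a larger difference than LGALS1 and 108 a larger one than DAB2. In that fit, which has no term for the animal, limma called 0% of the probe sets at an adjusted p under 0.05, with 1522 at an unadjusted p under 0.05, and in 1.02% of all probe sets the 5 arrays of 48 h lay above the 5 of 0 h. With a fixed term for each animal the LGALS1 and DAB2 differences were 1.02 ± 0.18 (SE) and 1.20 ± 0.26 (SE), where 0.608% of the probe sets passed; with 3 numbers moved they were 0.91 ± 0.17 (SE) and 1.13 ± 0.25 (SE), where 0.782% passed. Without animal 01 at 48 h the difference was 0.96 for LGALS1 and 0.83 for DAB2.

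Most of the difference lay between 24 h and 48 h. LGALS1 was 0.65 ± 0.20 (SE) higher at 48 h than at 24 h and DAB2 0.87 ± 0.29 (SE) higher, against 0.22 ± 0.20 (SE) and 0.17 ± 0.29 (SE) from 0 h to 24 h. Without animal 01 at 48 h, the differences between 48 h and 24 h were 0.74 for LGALS1 and 0.66 for DAB2. By animal, LGALS1 at 48 h minus 24 h was 0.18 in resistant animal 01, 0.93 in 02, 1.04 in 03, 1.0 in 05 and 0.78 in 06. DAB2 was higher by 1.57, 0.93, 0.51, 0.61 and 1.11 in the same 5 animals. Each gene was thus higher at 48 h in 5 of 5 resistant animals, but animal 01 had the smallest step for LGALS1 and the largest for DAB2. The genes were chosen for their level in these arrays of 48 h, so a rise into them is partly fixed by the choice. How many of all probe sets rose in each of these animals was not counted. In susceptible skin 2 of 4 animals were higher and 2 lower at 48 h than at 24 h for either gene, between -0.54 and 0.32 for LGALS1 and between -1.36 and 0.80 for DAB2.

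**Figure D2:**
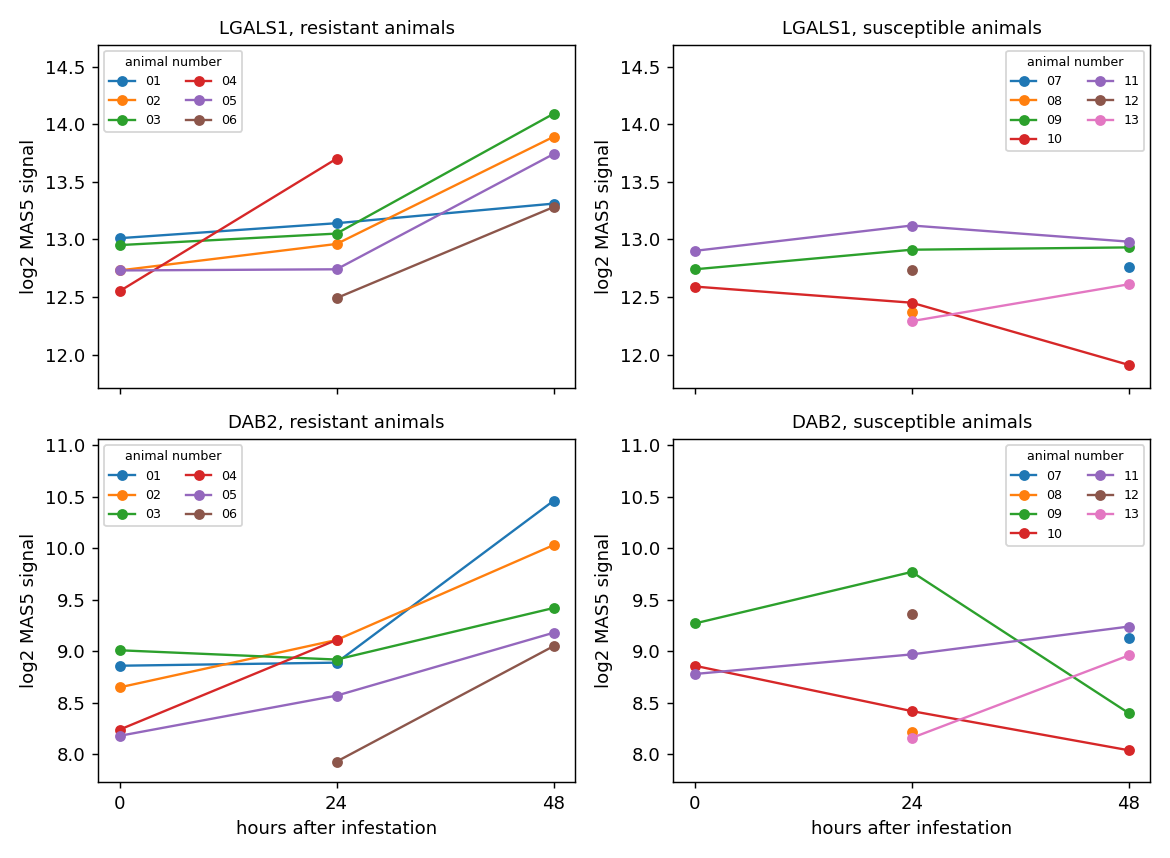
Log2 MAS5 signal of LGALS1 (top) and DAB2 (bottom) against hours after infestation, resistant animals on the left and susceptible on the right; each line joins the arrays of 1 animal number, and single points are animals with 1 array. All 5 resistant animals with both arrays are higher at 48 h than at 24 h, against 2 of 4 susceptible animals. The resistant arrays of 48 h were used to choose the genes, so this contrast is a description. The joins from 0 h are uncertain for resistant numbers 03, 04 and 05.

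From 0 h to 48 h, taking the numbers as labelled, LGALS1 was higher in 4 of 4 resistant animals (0.30, 1.16, 1.15 and 1.01 in 01, 02, 03 and 05) and in 2 of 3 susceptible animals (0.19, -0.68 and 0.08 in 09, 10 and 11). DAB2 was higher by 1.60, 1.38, 0.41 and 1.0 in these resistant animals and by 0.46 in 1 of 3 susceptible ones, with -0.87 and -0.82 in the others. The resistant change exceeded the susceptible one by 0.98 ± 0.31 (SE) for LGALS1 and by 1.26 ± 0.47 (SE) for DAB2, a description that holds the arrays used for the choice.

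Between the phenotypes, LGALS1 was nearly equal before infestation (resistant minus susceptible 0.05 ± 0.24 SE, with overlapping arrays, where 1.46% of all probe sets had every resistant array above every susceptible one) and 1.02 ± 0.21 (SE) higher in resistant skin at 48 h, or 2.03-fold. The 2 groups did not overlap at 48 h, which held for 0.543% of all probe sets with resistant skin higher, and limma called 0.0145% of the probe sets there. DAB2 was -0.38 ± 0.36 (SE) at 0 h, lower in resistant skin, and 0.87 ± 0.31 (SE) at 48 h, or 1.83-fold. Without resistant animal 01 at 48 h the difference was 1.11 for LGALS1 and 0.67 for DAB2, and without susceptible animal 10 at 48 h that of LGALS1 was 0.84. These comparisons share the resistant arrays of 0 h and 48 h with the one that chose the genes. At 0 h neither gene was higher in resistant skin by more than its SE.

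For the phenotypes at 24 h, the group means and the exact permutation test use none of those arrays. The SE, the interval and the limma p do in part, because the model takes the spread from all groups. LGALS1 was 0.37 ± 0.19 (SE) higher in resistant skin, with a 95% interval of -0.02 to 0.75, and did not pass (limma, adjusted p = 0.978). The exact permutation test of the 6 against 6 arrays gave a two-sided p of 0.110, where 0.00216 is the smallest it can give. Of the 6 resistant arrays 2 lay above every susceptible one, and in 0.0797% of all probe sets all 6 did. Without resistant animal 04, whose 13.70 was the highest at that time, the difference was 0.23. DAB2 differed by -0.06 ± 0.28 (SE), interval -0.64 to 0.51 (limma, adjusted p = 0.993; exact permutation p = 0.859). In this comparison limma called 0% of the probe sets, and 608 had an unadjusted p under 0.05.

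In susceptible skin neither gene passed in any pair of times. LGALS1 was -0.10 ± 0.23 (SE) at 24 h minus 0 h, -0.11 ± 0.24 (SE) at 48 h minus 0 h and -0.01 ± 0.20 (SE) at 48 h minus 24 h, with limma adjusted p of 0.9996 or higher in each. Its 95% interval at 48 h minus 0 h ran from -0.59 to 0.38. DAB2 was -0.15 ± 0.34 (SE), -0.22 ± 0.36 (SE) and -0.06 ± 0.29 (SE), with limma adjusted p also of 0.9996 or higher, and its interval at 48 h minus 0 h was -0.94 to 0.51. limma called 0% of the probe sets in each of the 3 comparisons, with 318, 131 and 259 at an unadjusted p under 0.05.

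**Figure D3:**
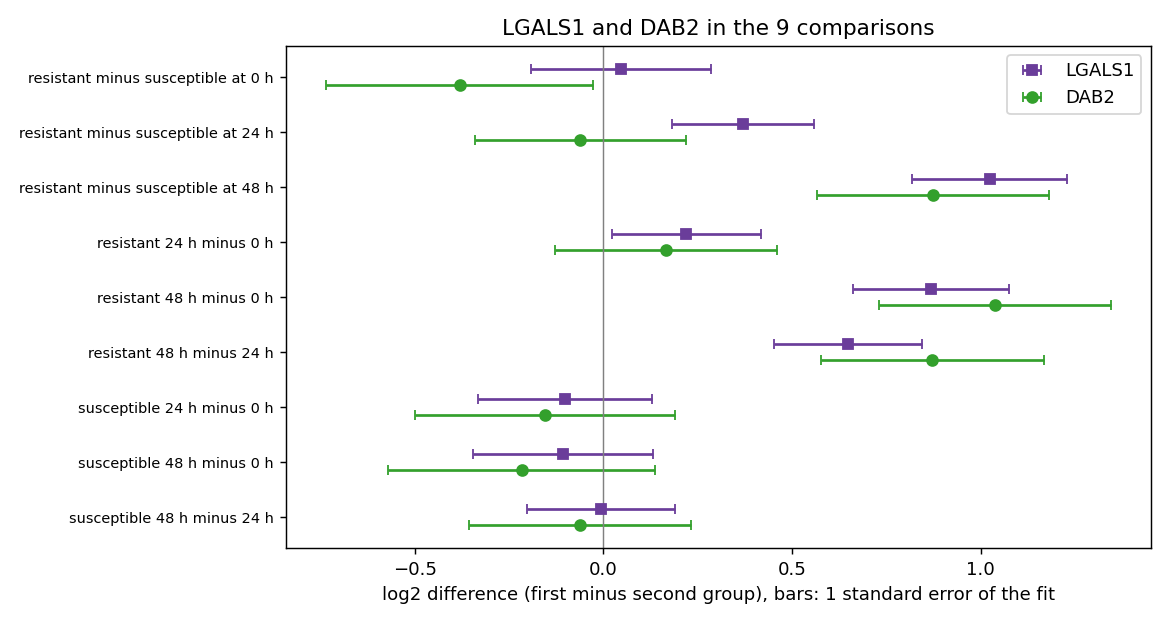
Log2 difference of LGALS1 (squares) and DAB2 (circles) in 9 comparisons, first minus second group as named on the vertical axis; bars are 1 standard error of the fit and the grey line marks 0. The differences that hold resistant skin at 48 h lie between 0.65 and 1.04, and the others between -0.38 and 0.37.

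Around the group means, 57.8% of the squared deviation of LGALS1 and 60.8% of that of DAB2 lay between the 13 animals, against a median of 51.2% over all probe sets kept. Both shares were thus a little above that median. They are not corrected for the number of animals, and an animal with 1 array counts wholly as between animals. The numbers were taken as labelled, and whether animals differ was not tested. Over the 30 arrays LGALS1 and DAB2 were correlated at r = 0.67 (Spearman's rho 0.70), in part because both were chosen for the same step. In deviations from the group means, which leave that step out, r was 0.55. The arrays share animals, so no p is given.

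The genes most like LGALS1 over the 30 arrays were S100A4 (r = 0.87), a calcium-binding protein of mesenchymal and myeloid cells, SFXN3 (0.85), a mitochondrial amino acid carrier, and FCGR1A (0.80), the high-affinity IgG receptor of macrophages. LOC504773, PPIB, TIMP1, RAB34, GPX1, COX7A1 and PTI followed at 0.80 to 0.77. In deviations from the group means SFXN3 (0.82), S100A4 (0.80) and COX7A1 (0.76), the muscle form of a cytochrome oxidase subunit, stayed among the 10 most like it. The new names were STAC, PLAC9, UQCC3, CAPN2, EGFLAM, LAMC1 and CALML4, at 0.74 to 0.68. The most opposed gene over all arrays was F3, tissue factor (-0.80), followed by TERF2IP and BRD7 (both -0.78).

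Other genes were most like DAB2. Over the 30 arrays they were LAMA4 (0.86), a laminin chain of vessel basement membranes, NTAN1, SYNE1, the macrophage genes AIF1 (0.84) and CD14 (0.83), RNASE6, VIM, CTSS, CD86 and IFFO1 (0.82). In deviations from the group means they were EFEMP2 (0.86), the complement proteases C1R (0.86) and C1S (0.84), GUSB, MAP4, LAMA4, LAMC1, IFFO1, SYNE1 and HEXIM2 (0.82). The most opposed gene over all arrays was DSG1 (-0.89), the desmosomal cadherin of the upper epidermis. Of the 10 genes most like each member, 0 were shared over all arrays and 1, LAMC1, in deviations. The median r over 7015 other genes was -0.02 for LGALS1 and -0.07 for DAB2.

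Markers of macrophages moved with both genes. Of 16 macrophage markers 14 were kept, none of them at 0 on any array (lowest value 4.49, CSF1R), and 14 of 14 were higher at 48 h than at 0 h in resistant skin. Their median difference was 0.90, against -0.02 over all genes, and 0 passed in that fit. All 14 were still higher, with a median of 0.74, when resistant animal 01 at 48 h was left out of the lists, an alternative added after the data were seen. The 2 brightest were F13A1 (1.24 ± 0.49 SE), the A subunit of factor XIII, and C1QA (0.92 ± 0.42 SE), a chain of C1q. The mean of the 14 markers ran from 8.22 to 9.15 in resistant skin at 0 h, 8.03 to 9.09 at 24 h and 9.39 to 10.15 at 48 h, and from 8.49 to 8.90, 8.16 to 8.96 and 7.26 to 9.36 in susceptible skin at these times. It was correlated with DAB2 at r = 0.82 over the 30 arrays and 0.77 in deviations, and with LGALS1 at 0.72 and 0.49.

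With the macrophage mean of each array as a covariate, an alternative added after the data were seen, the 48 h minus 0 h difference in resistant skin was 0.56 ± 0.21 (SE) for LGALS1 and 0.30 ± 0.24 (SE) for DAB2. Resistant minus susceptible at 48 h was then 0.60 ± 0.24 (SE) for LGALS1 and -0.12 ± 0.27 (SE) for DAB2, so the sign of the latter turned. The covariate itself moved with the groups.

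Fibroblast markers were higher by less. Of 14 markers 13 were kept and 13 of 13 were higher at 48 h than at 0 h in resistant skin, with a median difference of 0.30. The brightest were COL3A1, a fibrillar collagen chain, at 0.08 ± 0.35 (SE), and DCN, the proteoglycan decorin, at 0.17 ± 0.14 (SE), and 0 of the 13 passed. Without resistant animal 01 at 48 h, 12 of 13 were higher and the median was 0.16. Their mean ran from 12.26 to 12.65 in resistant skin at 0 h and 12.43 to 12.99 at 48 h, and from 12.45 to 12.89 and 11.43 to 12.71 in susceptible skin. It was correlated with DAB2 at r = 0.69 over the 30 arrays and 0.61 in deviations. For LGALS1 these were 0.60 and 0.50, the latter beside 0.49 for the macrophage mean. With this mean as a covariate, also added after the data were seen, LGALS1 was 0.68 ± 0.19 (SE) and DAB2 0.70 ± 0.26 (SE) higher at 48 h than at 0 h in resistant skin.

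Keratinocyte markers ran the other way. Of the differentiated set 4 of 12 were on the array, and all 4 were kept. In resistant skin 3 of 4 were lower at 48 h than at 0 h, with a median of -0.77 and 0 passing. DSG1 was at -0.85 ± 0.24 (SE) and KRT10, a keratin of suprabasal cells, at 0.11 ± 0.65 (SE). Without resistant animal 01 at 48 h the median was -0.51. Their mean ran from 11.01 to 11.70 at 0 h and from 9.82 to 11.34 at 48 h in resistant skin, the lowest being animal 01. In susceptible skin it ran from 11.15 to 11.73 and from 10.72 to 12.30, the highest being animal 10. It was correlated with DAB2 at r = -0.85 over the 30 arrays and -0.86 in deviations, and with LGALS1 at -0.66 and -0.58. With it as a covariate, LGALS1 was 0.64 ± 0.18 (SE) and DAB2 0.52 ± 0.18 (SE) higher at 48 h than at 0 h in resistant skin, and 0.82 ± 0.18 (SE) and 0.42 ± 0.18 (SE) higher than in susceptible skin at 48 h.

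**Figure D4:**
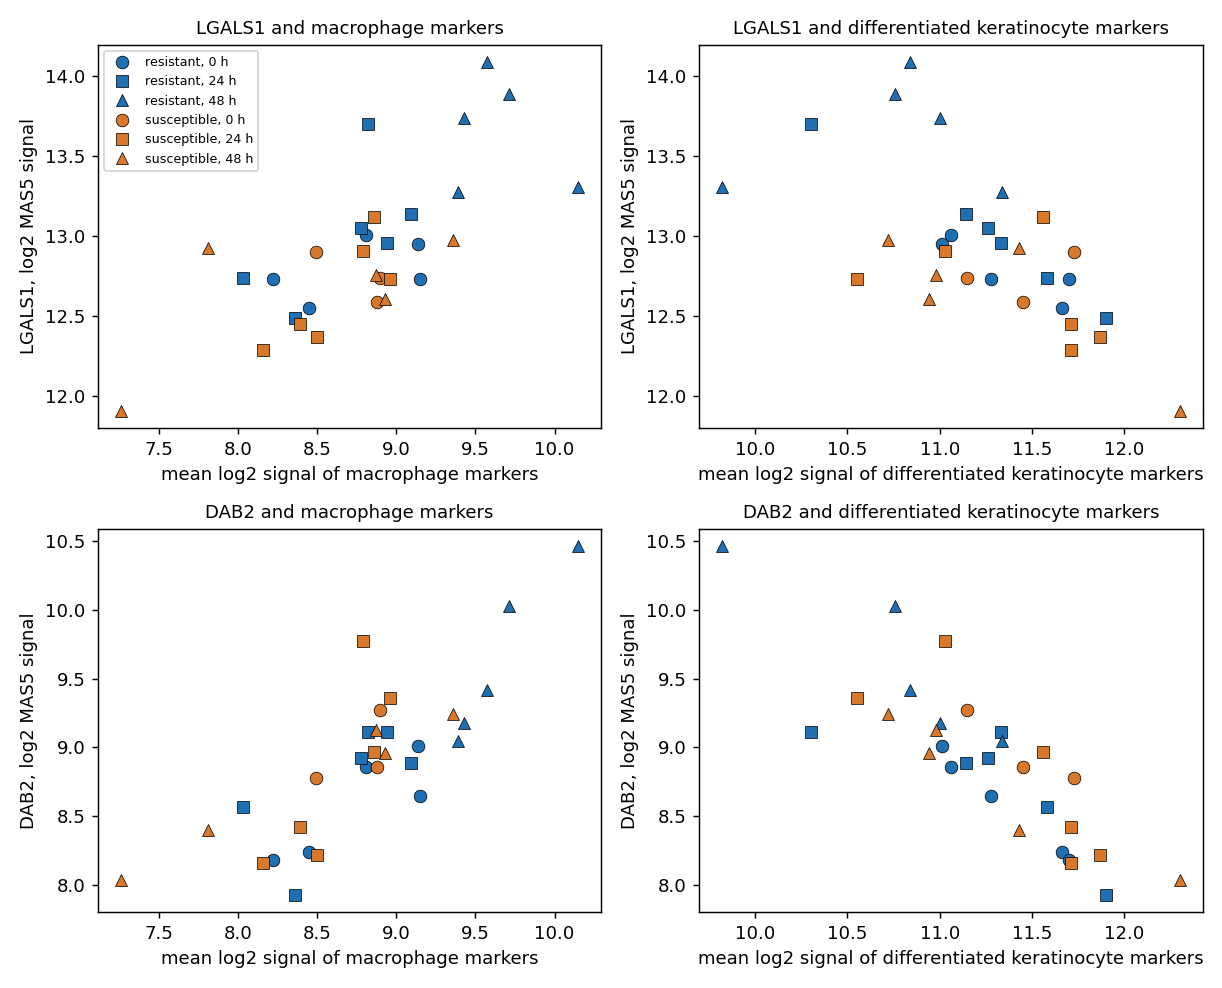
LGALS1 (top) and DAB2 (bottom) against the mean log2 signal of the macrophage markers (left) and of the differentiated keratinocyte markers (right) in each of the 30 arrays; blue is resistant, orange susceptible, and circles, squares and triangles are 0 h, 24 h and 48 h. DAB2 was correlated with these means at r = 0.82 and -0.85, and LGALS1 at 0.72 and -0.66. DAB2 was also correlated with the first principal component (0.84) and with the means of other marker lists.

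The other 9 marker lists are given by the median of resistant skin at 48 h minus 0 h. Mast cell markers (3 kept) had a median of 0.84, those of smooth muscle and pericytes (11) 0.57, endothelium (9) 0.35, T cells (8) 0.16 and granulocytes (4) 0.13. Medians below 0 were found for hair follicle (3, -0.21), adipocytes (4, -0.27), basal keratinocytes (7, -0.50) and melanocytes (4, -0.94). Without resistant animal 01 at 48 h the median was 0.01 for basal keratinocytes and -0.01 for T cells, both turned in sign. It was then 0.58 for mast cells, 0.45 for smooth muscle and pericytes, 0.34 for endothelium and 0.26 for granulocytes. For hair follicle it was -0.06, for adipocytes -0.16 and for melanocytes -1.05. Over the 30 arrays DAB2 was correlated with the means of mast cells (r = 0.72), hair follicle (-0.72), basal keratinocytes (-0.67) and endothelium (0.58). With the first principal component it was at 0.84, and with the remaining lists between -0.27 and 0.50. LGALS1 was at 0.60, -0.44, -0.23 and 0.22 with those named, and at 0.42 with the first principal component. The part of these lists in the LGALS1 and DAB2 differences was not tested.

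In some single arrays the 2 genes parted, and in others they moved together. Resistant animal 01 at 48 h had the highest macrophage mean (10.15), the highest DAB2 (10.46) and an LGALS1 of 13.31, below 3 of the other 4 arrays of its group. Resistant animal 04 at 24 h had a macrophage mean of 8.82 and an LGALS1 of 13.70, which no array outside resistant skin at 48 h exceeded. DAB2 in that array was 9.11, also at the top of its group. Susceptible animal 10 at 48 h had the lowest macrophage (7.26) and fibroblast (11.43) means and the lowest LGALS1 (11.91). DAB2 was low there too, at 8.04, the lowest of its group. Susceptible animal 09 at 24 h had a DAB2 of 9.77 and an LGALS1 of 12.91 with a macrophage mean of 8.79.

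RNA quality, read as the difference between the 3′ and 5′ control probe sets of actin and GAPDH, ran from 1.25 to 1.83 log2 units in resistant skin at 0 h and from 1.08 to 2.69 at 48 h. The means were 1.57 ± 0.25 (SD, n = 5) and 2.22 ± 0.66 (SD, n = 5). Resistant skin at 24 h already had a mean of 2.13 ± 0.69 (SD, n = 6). Susceptible skin was at 1.61 ± 0.48 (SD, n = 3) at 0 h, 2.05 ± 0.81 (SD, n = 6) at 24 h and 1.83 ± 0.48 (SD, n = 5) at 48 h. In resistant skin at 48 h animal 05 was at 1.08 and the other arrays were at 2.32 or more, above all arrays of 0 h. With this control difference as a covariate the 48 h minus 0 h differences in resistant skin were 0.84 ± 0.22 (SE) for LGALS1 and 1.003 ± 0.33 (SE) for DAB2.

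Other galectins are lectins of the same fold with their own tissue patterns. Besides LGALS1, 15 family genes were listed, 5 were on the array and 4 were kept, and 0 passed in any of the 9 comparisons. The fit without the animal called 0% of all probe sets in each comparison except phenotypes at 48 h, where it called 0.0145%. A count of 0 in a list was therefore near the share over all probe sets. LGALS9, which binds T cells through TIM-3, was 0.53 ± 0.24 (SE) higher in resistant skin at 48 h than at 0 h, and LGALS8, which detects damaged endosomes, was -0.44 ± 0.23 (SE). LGALS4, a galectin of gut epithelium, was at 0.15 ± 0.21 (SE). LGALS3, the galectin of macrophages and epithelium, was at 14.30 ± 0.21 (SD, n = 5) and 14.28 ± 0.12 (SD, n = 5), a difference of 0.02 ± 0.10 (SE). The median of the 4 was 0.09, and 0.17 without resistant animal 01 at 48 h.

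Of 18 glycoproteins known to bind galectin-1, 14 were kept, and 11 were higher and 3 lower in resistant skin at 48 h against 0 h, with a median of 0.28. The median was 0.16, with 12 higher and 2 lower, without resistant animal 01 at 48 h. The largest differences were MCAM (0.84 ± 0.31 SE), an adhesion molecule of vessels, LGALS3BP (0.72 ± 0.31 SE), a secreted galectin ligand, and FN1 (0.56 ± 0.44 SE), fibronectin. FN1 differed more between the phenotypes at 48 h (1.31 ± 0.44 SE), and MCAM did not follow (0.02 ± 0.31 SE). Of 15 enzymes that build or cap the glycans galectins bind, 11 were kept, 4 higher and 7 lower, by a median of -0.10. ST6GAL1, whose sialic acid blocks galectin-1 binding, was at -0.41 ± 0.57 (SE), GCNT1, which starts core 2 O-glycans, at 0.36 ± 0.24 (SE) and MGAT4A, an N-glycan branching enzyme, at -0.36 ± 0.22 (SE). Of these 2 lists 0 genes passed in any of the 9 comparisons, where 0% of all probe sets did, or 0.0145% for phenotypes at 48 h.

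Among receptors that DAB2 carries or that meet it at the membrane, 9 of 17 were kept, 5 higher and 4 lower in resistant skin at 48 h against 0 h, with a median of 0.11. ITGB3, the integrin beta 3 chain, was 0.87 ± 0.35 (SE) higher and STAB1, a scavenger receptor of macrophages and sinusoidal vessels that also stands in the macrophage list, 0.75 ± 0.24 (SE). SORL1, a sorting receptor of the LDL receptor family, was at -0.30 ± 0.31 (SE). Of 31 clathrin coat and adaptor genes 16 were kept, 9 higher and 7 lower, by a median of 0.02. The largest of these were EPS15L1 (-0.29 ± 0.30 SE), DNM2 (-0.22 ± 0.16 SE), the dynamin that cuts vesicles free, and HIP1 (0.19 ± 0.22 SE). None of the 16 reached a difference of the size seen for DAB2 (1.04).

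All 8 measured genes of the DAB2 signalling list, of 16 listed, were lower in resistant skin at 48 h against 0 h, with a median of -0.15. They were lower at 24 h against 0 h as well (8 of 8, median -0.15), a comparison that shares the 0 h arrays. Without resistant animal 01 at 48 h, 7 of 8 were lower at 48 h. The largest were TGFB2 (-0.32 ± 0.18 SE), SMAD2 (-0.22 ± 0.10 SE), the receptor-activated transducer of TGF-beta, and CTNNB1 (-0.21 ± 0.10 SE), beta-catenin. Between the phenotypes at 48 h 3 were higher and 5 lower, with a median of -0.11. As in the receptor and clathrin lists, 0 passed in any of the 9 comparisons of the fit without the animal. Of all probe sets 0% passed there, or 0.0145% for phenotypes at 48 h.

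The lists held 142 measured genes beside the members, each counted once. With the animal as a fixed effect, 4 of them passed in resistant skin at 48 h against 0 h, or 2.82%, where 0.608% of all probe sets did, and with 3 numbers moved 5 passed, or 3.52%, where 0.782% of all probe sets did. The lists were chosen with earlier results known, and those shares were not tested against each other. With the numbers as labelled, the genes that passed were ITGB3 (1.18 ± 0.25 SE, limma adjusted p = 0.0407) and AIF1 (1.03 ± 0.23 SE, adjusted p = 0.0471), both higher. DSG1 (-1.03 ± 0.20 SE, adjusted p = 0.0331) and DSC1 (-1.34 ± 0.27 SE, adjusted p = 0.0358) were lower, and both are desmosomal cadherins. With 3 numbers moved, AIF1 and DSG1 passed again (adjusted p = 0.0415 for both), with ENG (0.91 ± 0.17 SE, adjusted p = 0.0310), S100A4 (0.60 ± 0.12 SE, adjusted p = 0.0412) and VIM (0.49 ± 0.11 SE, adjusted p = 0.0498). ITGB3 and DSC1 then missed the threshold (adjusted p = 0.0716 and 0.0825).

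**Figure D5:**
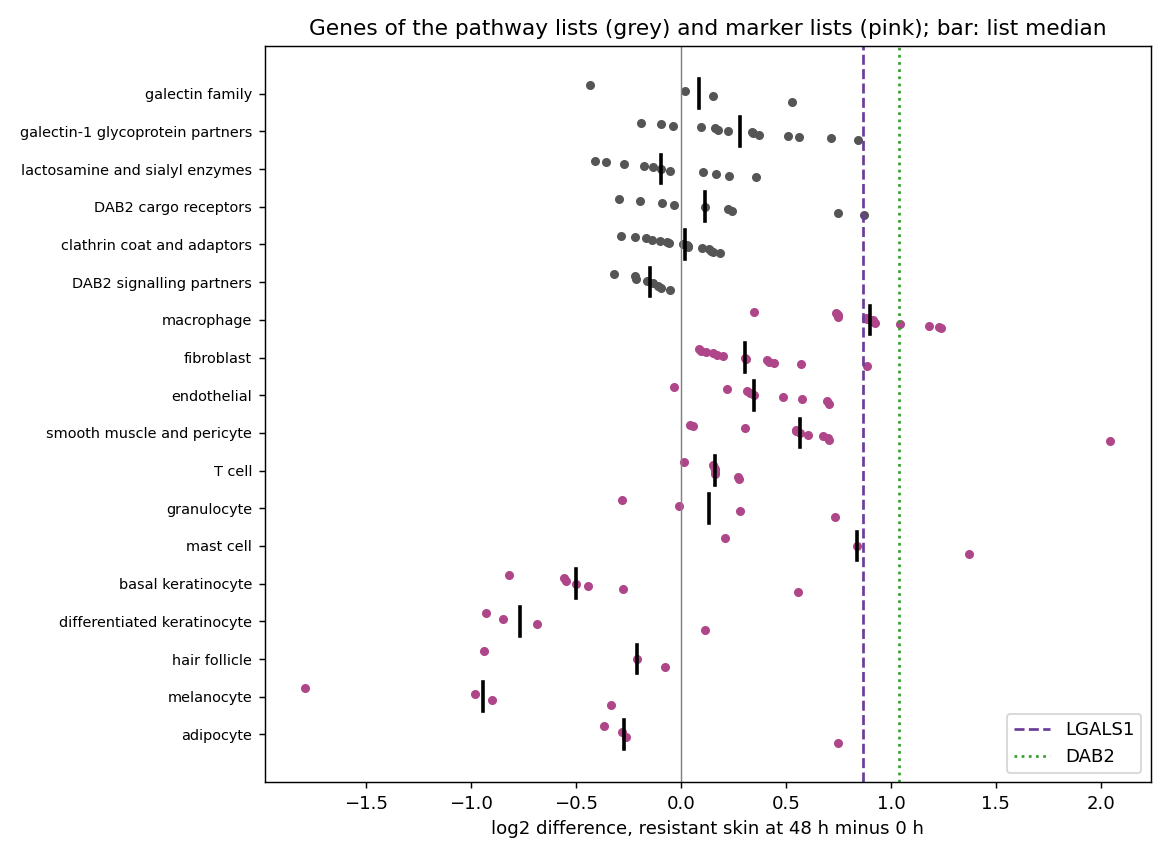
Log2 difference of resistant skin at 48 h minus 0 h for each measured gene of the pathway lists (grey points) and of the cell type marker lists (pink points), 1 row per list; the black bar is the list median and the vertical lines are LGALS1 (dashed, 0.87) and DAB2 (dotted, 1.04). The macrophage (0.90) and mast cell (0.84, 3 genes) medians lie nearest the lines, and that of smooth muscle and pericytes is at 0.57. Without resistant animal 01 at 48 h, which the plot includes, the macrophage median was 0.74 and the mast cell median 0.58. The clathrin (0.02) and galectin (0.09) medians lie near 0.

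The genes beside the members on their chromosomes, in the order of the RefSeq annotation of assembly ARS-UCD2.0, were looked at after the data were seen. Of the 4 protein-coding genes on either side of LGALS1, GGA1, PDXP, TRIOBP and GCAT were kept, and their 48 h minus 0 h differences in resistant skin lay between -0.42 and -0.01. Of those around DAB2, PRKAA1, PTGER4 and OSMR were kept, at -0.02 ± 0.30 (SE), -0.05 ± 0.14 (SE) and 0.07 ± 0.32 (SE). The neighbours measured thus lay between -0.42 and 0.07, beside 0.87 for LGALS1 and 1.04 for DAB2.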

How the data were processed

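The log2 MAS5 signals deposited by the authors were used without further normalization (MAS5 stands in the submitters' processing notes, without a version). Their linear signals had a 2% trimmed mean of 500 on each of the 30 arrays. Controls (112 of 24128 probe sets) were dropped; 13809 of the other 24016 reached the array median on at least 3 arrays and were tested. Symbols came from the supplied probe set annotation. A gene was read by its kept probe set with the highest mean. All 30 arrays entered one linear model with a mean for each of the 6 groups (limma 3.58.1 under R 4.3.3, eBayes with an intensity trend), two-sided, with Benjamini-Hochberg adjustment over the probe sets kept and a threshold of 0.05. Precision is limited by how many arrays a group has. The same animal numbers in the titles pair the times of a phenotype; 5 of 8 arrays of 0 h were closest to their own number. The members, lists and comparisons were chosen with earlier results of these data known. Named list genes are the 3 with the largest difference between 48 h and 0 h in resistant skin, the 2 brightest of a marker list, and those past the threshold. Genes most like a member are the 10 highest by Pearson correlation. On simulated data for resistant against susceptible skin at 24 h, with 13809 probe sets, 97 of 100 shifts of 2 log2 units and 77 of 100 shifts of 1 were called, beside 11 false calls. The simulated noise was normal and independent between probe sets and arrays, without shared animals. These counts check the code and do not give the power in the real arrays. Plots were drawn with matplotlib 3.10.9.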

Additional observations from a re-analysis of the deposited data

Results flagged for a closer look

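One array was marked in each of 2 of 40 sets of values in which the gap of the highest or lowest array to its neighbour was compared with the range of its group, a check that marks about 1 in 20 sets by chance. The dimmer DAB2 probe set read -0.74 in susceptible animal 11 at 24 h, where the next lowest array read 2.66 and the highest 4.63. The difference between 3′ and 5′ controls was 1.08 in resistant animal 05 at 48 h, where the next lowest array was at 2.32 and the highest at 2.69; LGALS1 in this array was 13.74 and DAB2 9.18.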

How the results depend on the processing

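Over 16 other settings and 30 fits that each left out 1 array, 0 of 362 values of the tested comparisons had an adjusted p under 0.05. The differences of LGALS1 and DAB2 that hold resistant skin at 48 h kept their sign in all of these but one: with macrophage markers as a covariate DAB2 was -0.12 for resistant minus susceptible at 48 h. With the same covariate DAB2 was 0.30 at 48 h minus 0 h and 0.0627 at 48 h minus 24 h in resistant skin, and LGALS1 was 0.60 for phenotypes at 48 h, 0.56 at 48 h minus 0 h and 0.31 at 48 h minus 24 h. With differentiated keratinocyte markers DAB2 was 0.52 at 48 h minus 0 h. The cause was not tested.

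In tested comparisons near 0, signs turned under some settings. The difference LGALS1 susceptible 24 h minus 0 h was 0.0129 with the animal as a fixed replicate block and 0.0116 with fibroblast markers. LGALS1 susceptible 48 h minus 0 h was 0.00159 with macrophage and 0.0858 with fibroblast markers. LGALS1 susceptible 48 h minus 24 h was 0.00506 with array weights, 0.00338 with 3′ to 5′ controls, 0.0515 with macrophage and 0.0742 with fibroblast markers. DAB2 resistant minus susceptible at 24 h was 0.0394 with array weights. DAB2 susceptible 24 h minus 0 h was 0.0527 with fibroblast markers. DAB2 susceptible 48 h minus 0 h was 0.0406 with macrophage and 0.14 with fibroblast markers. DAB2 susceptible 48 h minus 24 h was 0.0281 with array weights, 0.0732 with macrophage and 0.0844 with fibroblast markers. With both probe sets averaged, DAB2 resistant minus susceptible at 24 h kept its sign at -0.47, and DAB2 resistant 24 h minus 0 h, which was not tested, turned to -0.0649.

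Leaving out 1 array, LGALS1 ran from -0.19 to 0.0745 for susceptible 48 h minus 0 h and from -0.0910 to 0.18 for 48 h minus 24 h, the highest in both without animal 10 at 48 h. DAB2 ran from -0.19 to 0.13 for phenotypes at 24 h and for susceptible 48 h minus 24 h, the highest in both without susceptible animal 09 at 24 h. LGALS1 in resistant skin at 24 h minus 0 h ran from 0.0839 (without animal 04 at 24 h) to 0.32. The fixed replicate block raised the probe sets called for resistant 48 h minus 0 h from 0 to 84, or 108 with 3 numbers moved, and the random block to 2; it changed no call of a tested member comparison. For phenotypes at 48 h limma called 2, and 10 with arrays centred on their median, 4 with no filter and 0 with array weights or with only the 2 groups. That count ran from 0, without any of resistant animals 01, 02, 03 and 05 or susceptible animal 10 at 48 h, to 14, without susceptible animal 11 at 48 h.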
